A study of Mus musculus with 12 samples.

Results

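The immunoproteasome and its constitutive counterparts were followed here as 9 genes, chosen by symbol, of the 55536 genes with a transcript in the deposited tables. They are the inducible catalytic subunits Psmb8, Psmb9 and Psmb10, the constitutive catalytic subunits Psmb5, Psmb6 and Psmb7, and the PA28 genes Psme1, Psme2 and Psme3. Bulk RNA was sequenced from primary mouse oligodendrocyte precursor cells (OPCs) in 12 libraries, 3 in each of 4 groups. The untreated group is called Ctr. The EZH2i group received the EZH2 inhibitor EPZ011989 at 1.5 μM for 4 days, renewed every 48 h. The IFN-γ group received interferon-γ at 100 ng/ml for 6 h, and the group called IFN-γ with EZH2i received the interferon for the last 6 h together with new inhibitor. In all 4 groups the OPCs came from brains of P4 to P6 pups that carried Sox10:Cre and the RCE:loxP EGFP reporter on a mixed C57BL/6J and CD1 background, so that cells that have expressed Sox10 carry GFP. Several pups of both sexes were pooled for a culture, the labels call the cells Sox10GFP+ and the replicates were taken from different litters. The labels give EAE, a mouse model of multiple sclerosis, on every sample, and the cells are cultures from pups in proliferation medium with PDGF and bFGF.

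The proteasome is the barrel-shaped protease that degrades ubiquitin-tagged proteins. Its 20S core carries catalytic β subunits inside the barrel, and cells exposed to IFN-γ make replacement subunits that are built into newly assembled cores, which are then called immunoproteasomes. Psmb8 (β5i, LMP7) takes the place of Psmb5 (β5), Psmb9 (β1i, LMP2) that of Psmb6 (β1), and Psmb10 (β2i, MECL-1) that of Psmb7 (β2). Psme1 and Psme2 encode PA28α and PA28β, which form a cap on the barrel, and Psme3 encodes PA28γ, a nuclear relative. Immunoproteasomes are best known for making peptides that are presented on MHC class I. EZH2 is the methyltransferase that places the repressive H3K27me3 mark.

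The 9 genes lie on 5 chromosomes of GRCm38. Psmb8 (chr17:34197721-34201454, plus strand) and Psmb9 (chr17:34181987-34187764, minus strand) flank Tap1 (chr17:34187553-34197225, plus strand), the first chain of the peptide transporter, within the MHC. The first exon of the main Psmb9 transcript overlaps the first exon of Tap1 on the other strand, and whether the authors' counting used strand is not given in the sources used here, so reads of that overlap cannot be told apart. Psme1 (chr14:55578123-55581529, plus strand) and Psme2 (chr14:55587441-55591113, minus strand) are neighbours, on the chromosome that also holds Psmb5 (chr14:54614119-54618022, minus strand). Psmb6 (chr11:70525367-70527858) and Psme3 (chr11:101316213-101323537) are on chromosome 11, plus strand, Psmb7 (chr2:38588036-38644087) on chromosome 2, minus strand, and Psmb10 (chr8:105935735-105938444) on chromosome 8, minus strand.

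Inducible and constitutive partners were far enough apart in sequence to be counted separately. The coding sequence of Psmb8 was identical to that of Psmb5 at 63.6% of aligned positions, Psmb9 to Psmb6 at 60.9%, Psmb10 to Psmb7 at 61.3% and Psme1 to Psme2 at 57.9%. Psme2 has a near-identical intronless copy, Psme2b (chr11:48945354-48946190, minus strand), with 712 of 717 coding bases the same, so the split of reads between Psme2 and Psme2b is uncertain. The annotated pseudogenes Psmb5-ps, Psmb6-ps and Psmb6-ps2 had no count in any library, and Psmb7-ps2 had at most 2.68 estimated counts. Of the antisense genes, Gm20496 at Psmb8 had at most 5 estimated counts in a library and Gm16156 at Psmb10 at most 40.

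RefSeq promoter windows (GRCm38.p6, 300 bases each, from 250 before the start site) were at hand for 8 of the 9 genes, all but Psmb7. They were searched on both strands for an ISRE core (GAAANNGAAA), the element bound by interferon regulatory factors, a GAS element (TTCNNNGAA), the interferon-γ-activated site, a CCAAT box (CCAAT) and a GC box (GGGCGG). The first 2 stretches below are shown because they hold the only GAS match and the only ISRE core in these windows. The third, of Psmb9, holds a CCAAT box next to the RefSeq start site, as Psme3 has too (not shown). The motif is in capitals, and each stretch is 30 bases, read 5′ to 3′ on the strand of the gene.
Psmb8, GAS, chr17:34198087-34198116, plus strand: gtcctccgctgTTCCCAGAAgatgcccccc
Psme1, ISRE core on the opposite strand, chr14:55578493-55578522, plus strand: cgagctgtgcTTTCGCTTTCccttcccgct
Psmb9, CCAAT box on the opposite strand, chr17:34187322-34187351, minus strand: cgcgcagccgctgATTGGaaagccgagccc
The Psmb8 match begins 97 bases before the RefSeq start site, in the 5′ untranslated first exon of one GENCODE coding transcript and in the first intron of the other, and the Psme1 match lies in the 5′ untranslated region of its main coding transcript. The Psmb9 box lies within the span of its main GENCODE transcript, which starts further upstream, at chr17:34187764. Of 32851 mouse windows, 3.44% held the ISRE core, 8.3% the GAS element, 37.4% the CCAAT box and 35.7% the GC box. Among the 8 genes, 1 held the ISRE core, 1 the GAS element, 2 the CCAAT box (Psmb9 and Psme3) and 4 the GC box (Psmb6, Psmb9, Psme1 and Psme2). Psmb10 and Psmb5 held none of the 4 motifs in this window.

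The libraries held between 17403893 and 66546052 estimated counts (median 33625908). The OPC markers were high in every library, with Pdgfra between 480 and 1917 CPM, which are counts divided by library size after TMM scaling, a correction for library composition. Among markers of cells that express immunoproteasome genes constitutively, C1qa was at 0 in all 12 libraries, and Aif1, C1qb, Cd3e, Cd3d and Cd2 never had more than 3 counts. Others were counted in every library, Cd68 with 36 to 99 counts, P2ry12 with 7 to 75 and Cd79a with 9 to 42. In Ctr, Psmb8 had 9 to 46 counts and Psmb9 5 to 27, and the part of such cells in these low levels was not tested. The 11 microglia and macrophage markers together came to 2.19 to 2.71 CPM in Ctr, 2.19 to 3.07 in EZH2i, 3.17 to 4.56 in IFN-γ and 2.52 to 3.45 in IFN-γ with EZH2i, and the 5 T and B cell markers to at most 1.44 CPM. Astrocyte markers were present at 192 to 903 summed CPM over 4 genes and mature oligodendrocyte markers at 781 to 1838 over 5, and in bulk RNA a change in the share of a cell type and a change in RNA per cell cannot be told apart.

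In untreated OPCs, the constitutive subunits dominated. On the TPM scale, a level per transcript length, summed over all transcripts of a gene, Psmb6 was highest in Ctr at 149 ± 29.4 (SD, n = 3), followed by Psmb7 at 62.1 ± 25.9, Psmb5 at 58.8 ± 20.1 and Psme3 at 37.0 ± 3.40. Psme1, Psmb10 and Psme2 came next with 15.4 ± 4.16, 15.0 ± 6.76 and 14.8 ± 6.06 TPM, and Psmb8 and Psmb9 were last with 0.455 ± 0.142 and 0.193 ± 0.0951 TPM. Psmb7 and Psmb5, as well as Psme1, Psmb10 and Psme2, did not differ from each other beyond their spread. After IFN-γ the order was another one: Psmb10 had 220 ± 61.5 TPM, Psmb6 170 ± 12.2, Psme1 162 ± 76.2, Psme2 161 ± 36.4 and Psmb8 144 ± 22.9, and the ranges of these 5 genes overlapped. Psmb5 (87.2 ± 20.6) and Psmb7 (81.5 ± 23.9) followed without differing from each other, and Psmb9 (49.2 ± 13.0) and Psme3 (44.3 ± 10.3) were lowest.

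**Figure D1:**
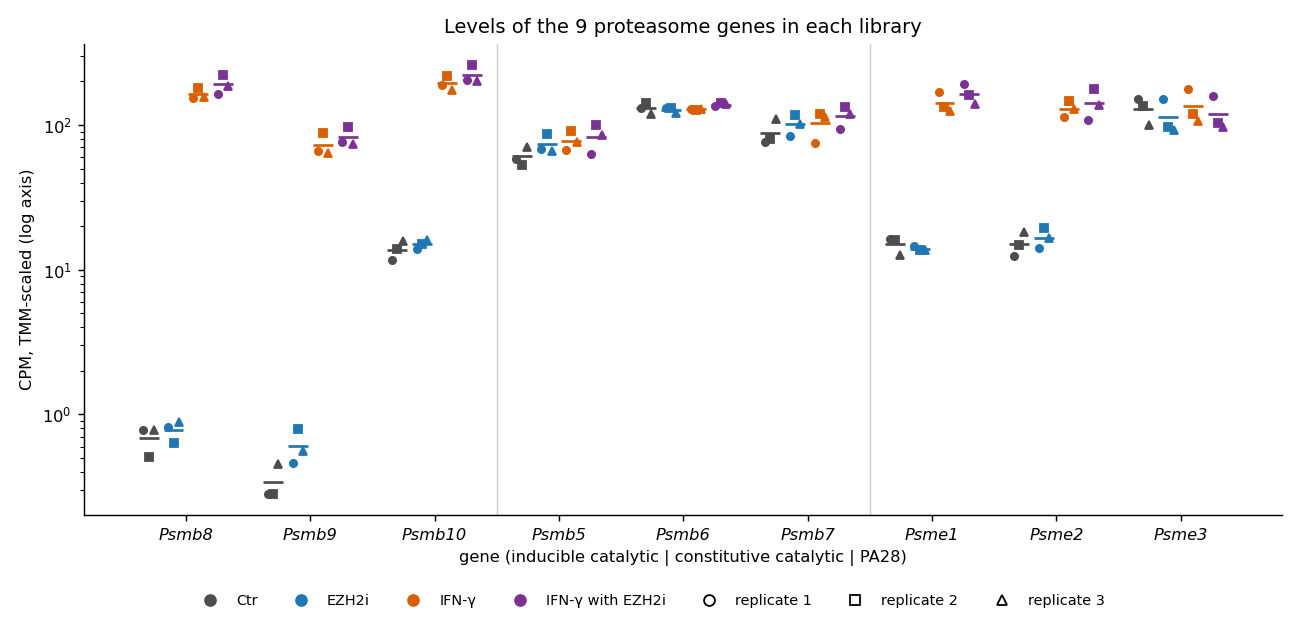
TMM-scaled CPM (log axis) of the 9 genes in the 12 libraries. Points are libraries, colours groups, symbols replicate numbers and bars group means. Psmb8 and Psmb9 stayed under 1 CPM in all 6 libraries without IFN-γ and were above 64 CPM in all 6 with it, whereas Psmb5, Psmb6, Psmb7 and Psme3 stayed within one band.

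The first comparison asks what IFN-γ does to these genes in OPCs. All 3 inducible catalytic subunits and both PA28α and PA28β rose, and none of the 3 constitutive catalytic subunits nor PA28γ was called. Of the 9 genes, 5 were called higher and 0 lower at an adjusted p under 0.05 (edgeR's quasi-likelihood test over 18995 genes, Benjamini-Hochberg), against 6.65% of all genes tested called higher. The libraries of the groups did not overlap for the same 5 genes, against 13.5% of all genes with all 3 IFN-γ libraries above all 3 Ctr libraries.

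Psmb8, the chymotrypsin-like inducible subunit, had 0.780, 0.508 and 0.780 CPM in the Ctr libraries and 154, 180 and 156 CPM in the IFN-γ libraries. The Ctr values rest on 22, 9 and 46 counts. The log2 fold change was 7.83 (SE 0.22), a 227-fold difference with a 95% interval of 164- to 314-fold (edgeR adjusted p = 3e-10). With protein-coding transcripts alone it was 7.32, below the 7.96 of Psmb9 counted that way.

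Psmb9, the inducible partner of β1, had 0.284, 0.282 and 0.458 CPM in Ctr and 66.4, 87.9 and 64.5 CPM after IFN-γ. Its counts in Ctr were the lowest of the 9 genes, with 8, 5 and 27. The log2 fold change was 7.62 (SE 0.27), or 197-fold with an interval of 130- to 297-fold (edgeR adjusted p = 2.6e-09). The intervals of Psmb8 and Psmb9 overlapped.

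Psmb10, the inducible partner of β2, differed from the other two in being already present without IFN-γ, at 11.7, 13.9 and 15.7 CPM. After IFN-γ it had 190, 219 and 175 CPM. The log2 fold change was 3.82 (SE 0.16), or 14.1-fold with an interval of 11.1- to 18.0-fold (edgeR adjusted p = 1.1e-08). Psmb10 thus ended at the highest level of the 3 after the smallest fold change, and its interval did not overlap those of Psmb8 and Psmb9.

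The PA28 genes split by member. Psme1 (PA28α) had 16.3, 16.1 and 12.6 CPM in Ctr and 170, 133 and 125 CPM after IFN-γ, a log2 fold change of 3.26 (SE 0.17). Psme2 (PA28β) had 12.4, 14.7 and 18.2 CPM in Ctr and 113, 147 and 128 CPM after IFN-γ, a log2 fold change of 3.09 (SE 0.21). Both were called (edgeR adjusted p = 7.7e-08 and 1e-06), and their 95% intervals, 2.88 to 3.63 and 2.63 to 3.56, overlapped. Psme3 (PA28γ) had 151, 136 and 99.8 CPM in Ctr and 176, 119 and 107 CPM after IFN-γ, with a log2 fold change of 0.06 (95% interval -0.51 to 0.63) and overlapping groups. The copy Psme2b rose as well, by 3.76 on the log2 scale (SE 0.32, edgeR adjusted p = 7.4e-06), from 1.47 to 2.87 CPM in Ctr to 21.7 to 36.3 CPM. With the counts of Psme2 and Psme2b added together, an alternative chosen after the data were seen, the log2 fold change was 3.20 (SE 0.22).

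The constitutive catalytic subunits moved little. Psmb6 had 132, 141 and 120 CPM in Ctr and 129, 126 and 129 CPM after IFN-γ, with a log2 fold change of -0.03 and a 95% interval of -0.24 to 0.18, the narrowest of the 9. Psmb5 had 58.3, 53.1 and 70.5 CPM in Ctr and 67.6, 90.5 and 76.1 CPM after IFN-γ (log2 fold change 0.36, interval -0.05 to 0.77). Psmb7 had 76.0, 80.2 and 110 CPM in Ctr and 75.4, 118 and 114 CPM after IFN-γ (log2 fold change 0.21, interval -0.25 to 0.67). For each of these 3 genes the groups overlapped. The intervals leave room for a rise of up to 1.13-fold in Psmb6, 1.71-fold in Psmb5 and 1.59-fold in Psmb7. They also leave room for a fall to 0.847-fold in Psmb6, 0.966-fold in Psmb5 and 0.843-fold in Psmb7.

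**Figure D2:**
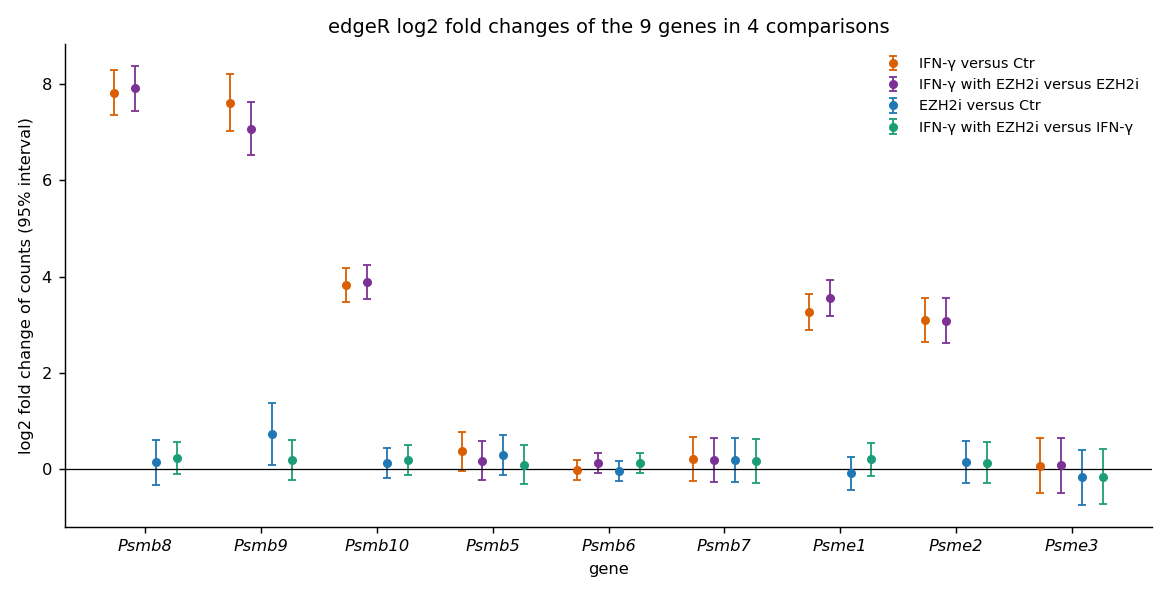
Log2 fold changes of counts (points) with 95% intervals (bars) from edgeR for the 9 genes in 4 comparisons, coded by colour. Psmb8, Psmb9, Psmb10, Psme1 and Psme2 lie above 3 in both comparisons of IFN-γ, and every interval of the comparisons of EZH2i except that of Psmb9 against Ctr spans 0.

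The same question was put with the inhibitor present, IFN-γ with EZH2i against EZH2i. These are other libraries than those of the first comparison. The 5 genes called were again Psmb8, Psmb9, Psmb10, Psme1 and Psme2, against 5.9% of all genes called higher, with log2 fold changes of 7.92 (SE 0.21), 7.08 (SE 0.26), 3.89 (SE 0.16), 3.55 (SE 0.17) and 3.08 (SE 0.21). Psmb8 went from 0.822, 0.630 and 0.880 CPM to 163, 223 and 187 CPM, and Psmb9 from 0.465, 0.795 and 0.562 CPM to 76.7, 97.5 and 74.1 CPM. Psmb10 went from 13.8, 15.1 and 16.1 CPM to 206, 258 and 203 CPM. In each of these genes all 3 libraries with IFN-γ lay above the other 3, against 11.8% of all genes tested. With protein-coding transcripts alone the log2 fold change of Psmb8 was 7.06, a 134-fold difference in place of 242-fold.

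In PA28, Psme1 went from 14.6, 13.6 and 13.8 CPM to 191, 161 and 140 CPM, and Psme2 from 14.2, 19.3 and 16.6 CPM to 109, 177 and 138 CPM. Psme3 had 151, 97.5 and 92.7 CPM in EZH2i and 158, 104 and 97.0 CPM in IFN-γ with EZH2i (log2 fold change 0.07, interval -0.50 to 0.64). Replicate 1 was the highest library of its group for Psme3 in all 4 groups. Among the constitutive subunits, Psmb6 was higher in all 3 libraries with IFN-γ than in the 3 without it, at 135, 141 and 140 CPM against 131, 130 and 120 CPM, which 11.8% of all genes tested were. Its log2 fold change of 0.12 (SE 0.10) did not pass the test (edgeR adjusted p = 0.636). Psmb5 (0.17, interval -0.24 to 0.58) and Psmb7 (0.19, interval -0.27 to 0.64) overlapped between the groups.

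The second question is whether inhibition of EZH2 moves these genes without IFN-γ. In EZH2i against Ctr 0 of the 9 genes were called by edgeR, and 1 had an unadjusted p under 0.05, as did 1338 of all 18995 genes tested. In all, 0.405% of genes tested were called higher and none lower. DESeq2 called 0 of the 9 as well.

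That 1 gene was Psmb9. Its EZH2i libraries, at 0.465, 0.795 and 0.562 CPM, were all above the Ctr libraries, at 0.284, 0.282 and 0.458 CPM, as in 7.37% of all genes tested. The log2 fold change was 0.72 (SE 0.29, 95% interval 0.08 to 1.36), with an edgeR adjusted p of 0.591, and the lowest EZH2i library and the highest Ctr library were next to each other. Both groups stayed under 1 CPM. Tap1, which overlaps the start of Psmb9, had 9.83 CPM on average in Ctr (range 8.23 to 10.7) and 21.1 CPM in EZH2i (range 13.7 to 25.8), with a log2 fold change of 1.10 (SE 0.22, edgeR adjusted p = 0.0602).

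For the other inducible subunits the values were close. Psmb8 differed by 0.13 on the log2 scale (interval -0.34 to 0.60) and Psmb10 by 0.12 (interval -0.20 to 0.44). Psme1 differed by -0.10 (interval -0.44 to 0.25), Psme2 by 0.14 (interval -0.30 to 0.58) and Psme3 by -0.18 (interval -0.75 to 0.39). Psmb5, Psmb6 and Psmb7 differed by 0.28, -0.04 and 0.18. All of these groups overlapped, and the upper bounds allow a difference of up to 1.52-fold for Psmb8 and 1.36-fold for Psmb10.

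The third comparison, IFN-γ with EZH2i against IFN-γ, asks whether the inhibitor changes the level reached after the cytokine. Again 0 of the 9 genes were called by edgeR and 0 by DESeq2, and 0.347% of all genes tested were called higher. An unadjusted p under 0.05 was found by edgeR for 0 of the 9, against 1220 of all 18995 genes. The 3 inducible catalytic subunits had slightly higher values with the inhibitor, Psmb8 by 0.22 on the log2 scale (interval -0.11 to 0.55), Psmb9 by 0.18 (interval -0.22 to 0.59) and Psmb10 by 0.19 (interval -0.12 to 0.50). Their groups overlapped. Within each of the 3 pairs of libraries with the same number, Psmb8, Psmb9, Psmb10, Psme1, Psmb6 and Psmb7 were higher with the inhibitor and Psme3 was lower. The share of all genes with the same direction in all 3 pairs was not counted, so these directions are only a description. None of the 9 genes was called with the replicate number as a block (edgeR adjusted p of at least 0.287). Psme1 differed by 0.20 and Psme2 by 0.12, and their groups overlapped too. Psmb6, at 129, 126 and 129 CPM with IFN-γ alone against 135, 141 and 140 CPM, was the member whose 3 libraries with the inhibitor all lay above the others, as in 6.08% of all genes, by 0.11 on the log2 scale (edgeR adjusted p = 0.999).

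The interaction term tests whether the effect of IFN-γ differed with and without the inhibitor. It called 0 of the 9 genes and 0% of all 18995 genes tested (edgeR, 127 genes with an unadjusted p under 0.05, and 0 called by DESeq2). The widest value among the inducible genes was that of Psmb9, -0.54 on the log2 scale (interval -1.30 to 0.22), as its EZH2i libraries began higher and its levels after IFN-γ overlapped. For Psmb8 the interaction was 0.09 (interval -0.49 to 0.67), for Psmb10 0.07 (interval -0.38 to 0.51), for Psme1 0.29 (interval -0.19 to 0.78) and for Psme2 -0.01 (interval -0.62 to 0.59). These intervals do not show the effects to be equal.

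The comparisons that share a group (Ctr, EZH2i or IFN-γ) share its libraries, so their values are side by side and are not independent of each other.

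Ratios within a library compare each inducible subunit with the partner it replaces, on the TPM scale. The β5 and β1 pairs began near 0 and the β2 pair began higher. Psmb8 made up 0.992%, 0.623% and 0.739% of the sum of Psmb8 and Psmb5 in the Ctr libraries and 65.5%, 60.6% and 61.3% after IFN-γ. Psmb9 made up 0.140%, 0.0717% and 0.177% of the sum of Psmb9 and Psmb6 in Ctr and 20.7%, 25.8% and 19.9% after IFN-γ. Psmb10 made up 18.8%, 19.3% and 19.9% of the sum of Psmb10 and Psmb7 in Ctr and 75.1%, 73.6% and 70.5% after IFN-γ. With protein-coding transcripts alone, the Ctr shares of Psmb10 were lower, at 8.2%, 9.0% and 6.8%. Summed over all transcripts, the ratio to the partner after IFN-γ was 1.67 ± 0.199 at β5, 2.73 ± 0.313 at β2 and 0.286 ± 0.0538 at β1 (SD, n = 3).

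Whether Psmb8 and Psmb10 exceeded their partners depended on the transcripts counted. With protein-coding transcripts alone, the ratio of Psmb8 to Psmb5 was 1.42, 0.840 and 0.894 in the IFN-γ libraries and 1.53, 0.975 and 1.01 in IFN-γ with EZH2i. The ratio of Psmb10 to Psmb7 was 1.85, 1.10 and 0.937 in the IFN-γ libraries and 1.52, 1.15 and 1.04 in IFN-γ with EZH2i. Both pairs were thus on either side of 1 in the IFN-γ libraries, with replicate 1 the highest in both groups. The Psmb9 to Psmb6 ratio stayed below 1 under this count too, at 0.237 ± 0.0567 after IFN-γ.

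With the inhibitor present the picture was alike. Psmb8 had 0.711%, 0.377% and 0.892% of its pair in EZH2i and 68.7%, 63.1% and 63.1% in IFN-γ with EZH2i. Psmb9 had 0.210%, 0.309% and 0.196% of its pair in EZH2i and 23.7%, 24.8% and 20.7% in IFN-γ with EZH2i. Psmb10 had 20.3%, 17.3% and 22.3% and then 74.5%, 75.0% and 72.3%. With protein-coding transcripts alone, the EZH2i shares of Psmb10 were 7.6%, 6.1% and 6.7%. For all 3 catalytic subunits together, over all transcripts, the inducible share was 5.34% ± 0.939 in Ctr, 5.91% ± 1.03 in EZH2i, 54.7% ± 1.91 in IFN-γ and 56.7% ± 1.85 in IFN-γ with EZH2i, given as a description with no test.

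In PA28, Psme1 and Psme2 together made up 41.5%, 44.8% and 48.4% of the summed TPM of the 3 PA28 genes in Ctr, and 45.6%, 49.9% and 51.7% in EZH2i. After IFN-γ they made up 87.5%, 88.2% and 88.2%, and in IFN-γ with EZH2i 89.1%, 90.6% and 89.9%. Both groups with IFN-γ lay far above both groups without it, with SDs of 0.377 and 0.757 percentage points. With protein-coding transcripts alone these shares were 32.2% to 45.8% in Ctr and 29.4% to 49.6% in EZH2i. They were 78.4% to 86.5% after IFN-γ and 79.5% to 89.9% in IFN-γ with EZH2i.

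**Figure D3:**
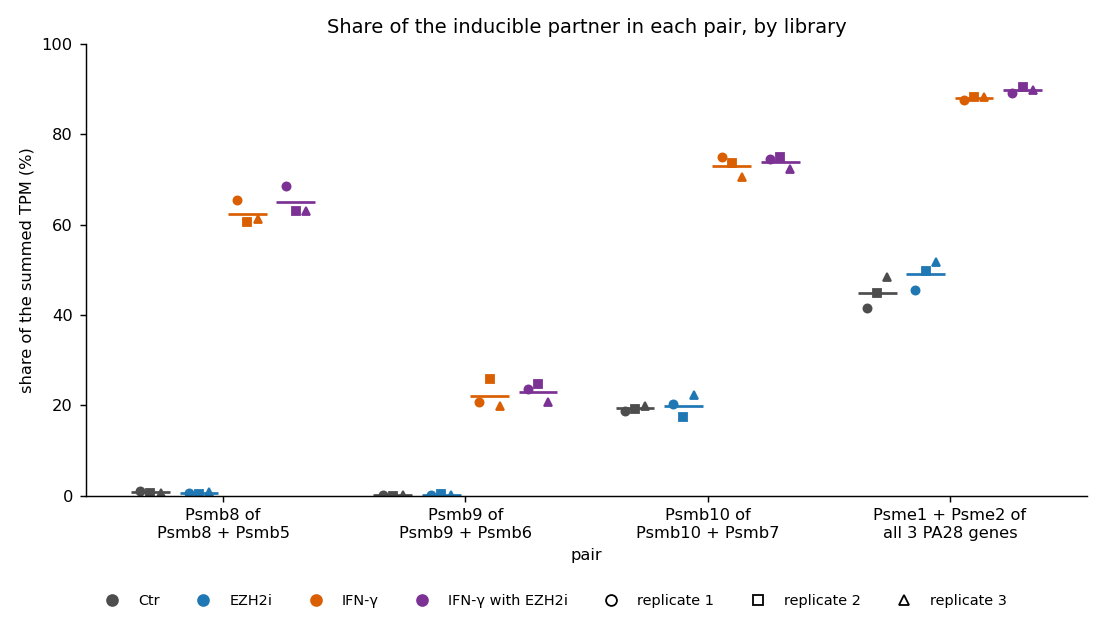
Share (%) of the inducible partner in the summed TPM of each pair, and of Psme1 plus Psme2 among the 3 PA28 genes, in the 12 libraries. Points are libraries, colours groups, symbols replicate numbers and bars group means. Over all transcripts, as plotted, the Psmb8 share was 60.6% to 68.7% and the Psmb10 share 70.5% to 75.1% in the 6 libraries with IFN-γ. With protein-coding transcripts alone these shares were 45.7% to 60.5% and 48.4% to 65.0%.

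The IFN-γ effect on the 4 log2 ratios was tested by exact permutation, with labels exchanged within the inhibitor strata (400 arrangements, two-sided), and adjusted over the 8 ratio tests made. The ratio rose 252-fold for Psmb8 to Psmb5, 172-fold for Psmb9 to Psmb6, 11.4-fold for Psmb10 to Psmb7 and 9.10-fold for Psme1 plus Psme2 to Psme3, in each case with p = 0.005, the smallest this exact test can give, and adjusted p = 0.01. With 1 TPM added to both terms, the log2 difference was 6.37 in place of 7.98 for Psmb8 to Psmb5 and 5.21 in place of 7.43 for Psmb9 to Psmb6. In all 4, every library with IFN-γ lay above every library without it in the same stratum.

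For the EZH2i effect, tested in the same way within the IFN-γ strata, the ratio changed 0.947-fold for Psmb8 to Psmb5 (exact permutation, adjusted p = 0.79), 1.43-fold for Psmb9 to Psmb6 (adjusted p = 0.0867) and 1.04-fold for Psmb10 to Psmb7 (adjusted p = 0.606). None of these 3 passed the threshold. The ratio of Psme1 plus Psme2 to Psme3 rose 1.20-fold with the inhibitor (exact permutation p = 0.02, adjusted p = 0.032). That call was lost with CPM in place of TPM (adjusted p = 0.28), with only protein-coding transcripts (adjusted p = 0.493) and when Ctr replicate 1 or 2 or EZH2i replicate 2 or 3 was left out (adjusted p = 0.064 for each, exact permutation). The Psmb9 to Psmb6 ratio passed without IFN-γ replicate 2 (adjusted p = 0.024) and without IFN-γ with EZH2i replicate 3 (adjusted p = 0.0467, exact permutation). With 1 TPM added to both terms, its log2 difference was 0.030 in place of 0.51 (exact permutation, adjusted p = 0.825). By stratum it was 1.93-fold without IFN-γ, where Psmb9 stayed under 1 CPM, and 1.06-fold with IFN-γ, where the groups overlapped.

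The transcripts behind these levels differed between the inducible and the constitutive genes. Psmb5 and Psmb7 were measured almost wholly on protein-coding transcripts (at least 98.5% of their TPM in every library), and Psmb6 at 80.2% to 89.9%. Psmb8 was at 54.7% to 74.9% and Psmb9 at 62.2% to 72.9% after IFN-γ, with most of the rest on transcripts annotated as retaining an intron. Psmb10 was lowest, at 24.9% to 60.7% over the 12 libraries, on its single protein-coding transcript. With protein-coding transcripts alone, the same number of the 9 genes, 5, was called in both comparisons of IFN-γ.

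Psme1 showed a split between libraries that did not follow the treatments. A transcript of 439 bases annotated as subject to nonsense-mediated decay held 50.8%, 65.5%, 57.4% and 61.7% of the Psme1 TPM in replicate 1 of the Ctr, EZH2i and IFN-γ groups and of the group with both. It held 48.9% in Ctr replicate 2 as well, and between 0 and 4.33% in the other 7 libraries. The full-length coding transcript of 1112 bases, by contrast, stood at 85.9, 101 and 82.8 TPM in the IFN-γ libraries and 89.1, 110 and 83.1 TPM in IFN-γ with EZH2i. The summed Psme1 TPM of 249 and 277 in replicate 1 of these groups, against 102 to 135 in the other 4 libraries, rests on the short transcript. Ctr replicate 2, the library outside replicate 1 with this transcript, was also the one whose deviations from its group mean over all genes correlated least with those of the same-numbered libraries (0.0134 to 0.0854, against at least 0.411 for replicates 1 and 3 of Ctr). A cause of the split was not tested.

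**Figure D4:**
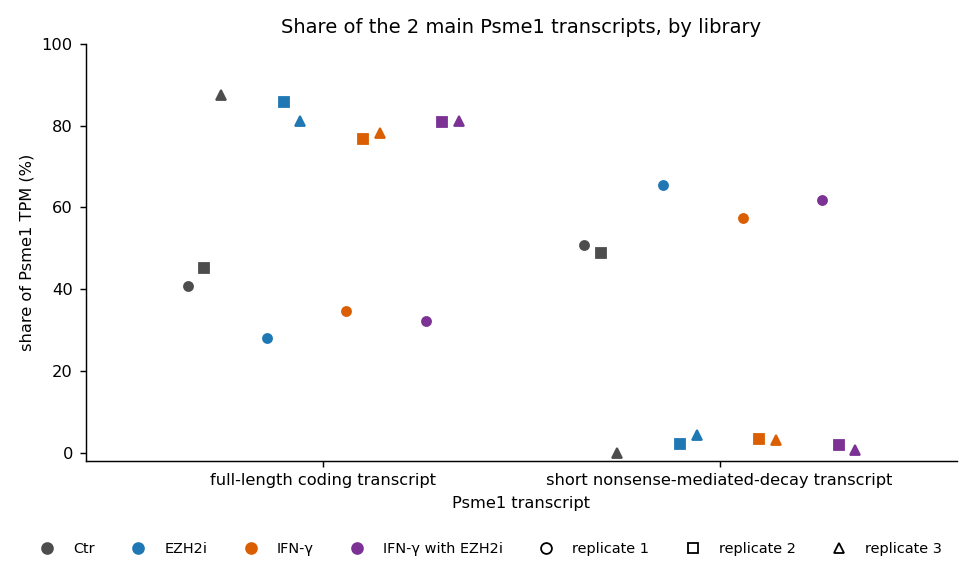
Share (%) of the Psme1 TPM held by the full-length coding transcript and by the short transcript annotated for nonsense-mediated decay, in the 12 libraries. Points are libraries, colours groups and symbols replicate numbers. The 4 replicate 1 libraries and Ctr replicate 2 hold 48.9% to 65.5% on the short transcript, and the other 7 at most 4.33%.

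The rest of the proteasome was compared from lists of its parts. Of the other 11 subunits of the 20S core, 1 rose with IFN-γ, Psma5 (log2 fold change 0.68, SE 0.18, edgeR adjusted p = 0.0395), where 6.65% of all genes were called higher. At an unadjusted p under 0.05 there were 6 of the 11, against 3612 of all 18995 genes, 10 of the 11 had a fold change above 0, and the median of the list was 0.36 beside a median of 0.00102 over all genes tested. Psmb4 had the highest value, 0.72 (SE 0.32, edgeR adjusted p = 0.245, named after its value was seen). With the inhibitor present, where 5.9% of all genes were called higher, 2 of the 11 rose, Psma5 (0.67, SE 0.18) and Psma4 (0.48, SE 0.13), with a median of 0.48. Psmb1 and Psma4, the uncalled members with the highest levels in Ctr, had log2 fold changes of 0.18 and 0.36 without the inhibitor. Of the 2 tissue-specific subunits, Psmb11, the thymic β5t subunit, was tested and called (log2 fold change 3.65, SE 0.83, edgeR adjusted p = 0.0159). Its level was only 0.436 to 0.506 CPM after IFN-γ and 0 to 0.068 CPM in Ctr. With 0, 0 and 4 counts in Ctr and 0, 2 and 1 in EZH2i, it passed the filter on low counts only through libraries with IFN-γ. That filter favoured the direction called, so the call is no independent support for a rise.

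In the 19S regulatory particle, which recognises and unfolds substrates, edgeR called 0 of 6 ATPase subunits and 0 of 13 non-ATPase subunits in both comparisons of IFN-γ. With 6.65% and 5.9% of all genes called higher, a count of 0 called in lists of this size is near the background. At an unadjusted p under 0.05 there were 0 of the 19, against 3612 and 3356 of all 18995 genes. Psmc3 and Psmc1, the most abundant ATPases in Ctr, had log2 fold changes of 0.03 and 0.03 with IFN-γ. The medians of the 2 lists were 0.04 and 0.15.

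Among 8 assembly factors, 2 rose in both comparisons of IFN-γ, in which 6.65% and 5.9% of all genes were called higher. Pomp, the chaperone that matures new 20S cores, had 57.3 to 65.4 CPM in Ctr and 97.3 to 110 CPM after IFN-γ (log2 fold change 0.75, SE 0.13, edgeR adjusted p = 0.00206). Psmg4, a core assembly chaperone, had 6.52 to 8.02 CPM in Ctr and 12.3 to 20.2 CPM after IFN-γ (1.11, SE 0.22, edgeR adjusted p = 0.00633). The other 6 did not pass the test. Of 5 other proteasome regulators 0 were called, with a median of 0.27. With EZH2i alone, none of the genes in these lists was called by edgeR, against 0.405% of all genes called higher and 0 lower. A count of 0 called in lists of this size is near that background. An unadjusted p under 0.05 was found for 1 gene of these lists, Uchl5 (-0.46, named after its value was seen), and for 1338 of all 18995 genes.

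**Figure D5:**
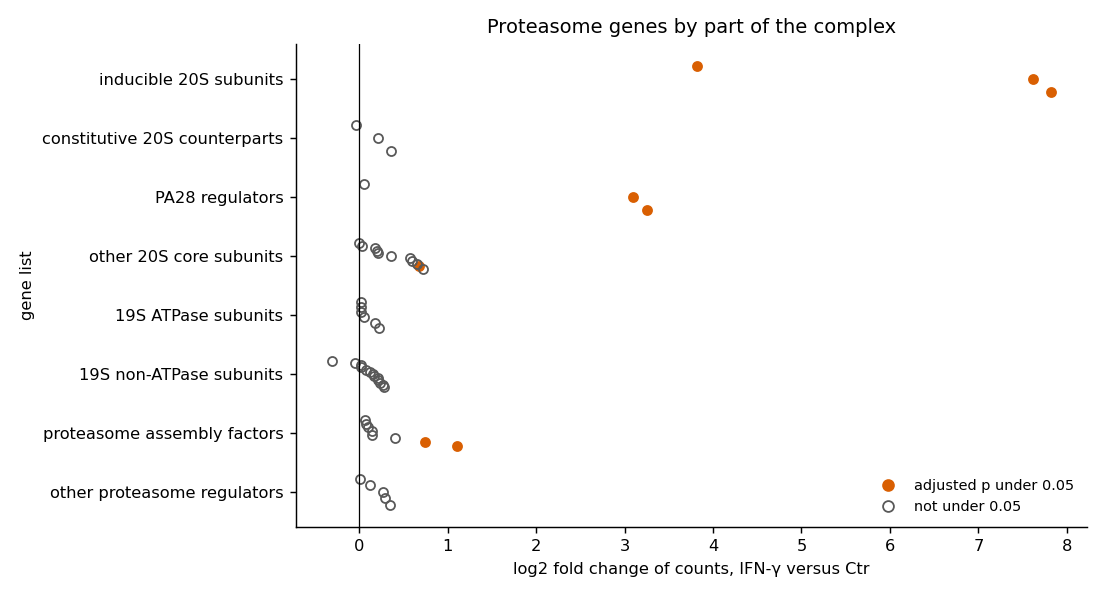
Log2 fold changes of counts for IFN-γ against Ctr, one point per gene, in rows by part of the proteasome. Filled points have an edgeR adjusted p under 0.05. The inducible subunits, Psme1 and Psme2 lie between 3.09 and 7.83, Psma5, Pomp and Psmg4 between 0.68 and 1.11, and no 19S subunit is filled.

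Most of the regulators known to act on these genes rose as well. Of 8 transcriptional regulators, 7 were called higher with IFN-γ in both comparisons, against 6.65% and 5.9% of all genes. Nlrc5, the MHC class I transactivator, went from 1.13 to 2.06 CPM in Ctr to 723 to 772 CPM (log2 fold change 8.71, SE 0.22). Irf8 rose by 7.97 (SE 0.25) and Irf1 by 6.31 (SE 0.16). The member that was not called, Nfe2l1, which drives the proteasome genes when proteasome activity is low, had a log2 fold change of 0.13 (SE 0.18). Tap1 (5.98, SE 0.26) and Tap2 (5.30, SE 0.17), the peptide transporter chains beside Psmb8 and Psmb9, were both called.

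Across the 12 libraries, the genes whose log2 CPM most resembled Psmb8 were Tgtp2, Irgm2 and Nlrc5 (Pearson r of 0.99941, 0.99937 and 0.99936 among 18986 genes). Those most like Psmb9 included Tap2 (0.99765) and Apol9a (0.99687), and those most like Psmb10 included Parp3 (0.9978) and Tap2 (0.99755). These coefficients describe 12 points that fall into 2 separate clusters, with and without IFN-γ, and share libraries and depth.

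Some cell markers moved with IFN-γ beside these genes. Pdgfra and Cspg4, 2 of 7 OPC markers, fell by 1.07 and 1.16 on the log2 scale, where 2.1% of all genes were called lower. The rest of the list was not called, and the median of the 7 was -0.31. Mean CPM in Ctr and after IFN-γ were 459 and 485 for Sox10, 426 and 427 for Lhfpl3 and 2222 and 2171 for Ptprz1. They were 1123 and 905 for Olig1 and 495 and 371 for Olig2. The OPC list summed to 6585 to 7405 CPM in Ctr and 4561 to 6199 CPM after IFN-γ. Among 4 neuronal markers, Syt1 (2.03) and Stmn2 (2.85) were called higher, as were 6.65% of all genes. The other 2 were not called and had lower means after IFN-γ, Rbfox3 (1.78 to 1.25 CPM) and Snap25 (11.1 to 10.4 CPM). The neuronal list summed to 14.1 to 15.0 CPM in Ctr and 16.5 to 22.8 CPM after IFN-γ. None of the tested microglia, T and B cell, astrocyte, endothelial, fibroblast or oligodendrocyte markers was called with IFN-γ. With EZH2i against Ctr none of these markers was called, against 0.405% of all genes called higher and 0 lower. All 4 neuronal, 2 of 5 mature oligodendrocyte and 1 of 2 tested fibroblast and pericyte markers had an unadjusted p under 0.05 by edgeR, against 1338 of all 18995 genes. In EZH2i the 4 neuronal markers summed to 27.1 to 43.0 CPM, the 4 astrocyte markers to 345 to 725 CPM (194 to 455 in Ctr) and the 5 mature oligodendrocyte markers to 808 to 1287 CPM (1470 to 1838 in Ctr). In IFN-γ with EZH2i against IFN-γ, Stmn2 was called higher (2.54), as were 0.347% of all genes. All 4 neuronal and 3 of the 5 mature oligodendrocyte markers had an unadjusted p under 0.05 by edgeR, against 1220 of all 18995 genes. The part of these shifts in the levels of the 9 genes was not tested.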

How the data were processed

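RNA was sequenced as stranded total RNA in paired reads. Per the study's methods the authors aligned with STAR and quantified with Salmon (0.8.2 per the labels), and deposited estimated counts and TPM for each of 141862 transcripts and library, with mm10 and GRCm38 as builds in the submitters' processing notes. All transcript identifiers matched GENCODE M21, and estimated counts and TPM were summed per gene here. Tables of the authors' own differential expression tests were not used.

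Summed estimated counts were rounded, filtered with filterByExpr (18995 genes) and scaled by TMM, and 4 contrasts and the interaction were fitted over all 12 libraries with edgeR's quasi-likelihood test (4.0.16) and Benjamini-Hochberg adjustment at 0.05. CPM are TMM-scaled, and log2 CPM for likeness used a prior count of 2. TPM ratios were tested by exact permutation. The scripts were tested on simulated data. The genes named are the 9 members, at most 4 called and 2 uncalled genes of each list, fixed regulators, the 3 genes most like each inducible subunit, and near copies, of which some are not reported here. The members and lists were chosen with earlier results of these data known. Coding sequences were aligned with Biopython 1.88, and promoter windows are from RefSeq. Alternatives were DESeq2 (1.42.0), RLE factors, other filters, length-scaled TPM, protein-coding transcripts, no mitochondrial or rRNA genes, only the 6 libraries compared, a replicate block and each library left out.

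Deviations of same-numbered libraries from their group means correlated at 0.411 to 0.642 over genes for replicates 1 and 3 and, for replicate 2, at 0.45 to 0.496 among the 3 treated groups and 0.0134 to 0.0854 against Ctr, so by this measure every number pairs the 3 treated groups, and Ctr pairs with them in replicates 1 and 3 and not in replicate 2.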

Additional observations from a re-analysis of the deposited data

How the results depend on the processing

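With the replicate number as a replicate block, 5, 5, 0, 0 and 0 of the 9 genes were called in the comparisons of IFN-γ, of IFN-γ with EZH2i present, of EZH2i, of EZH2i with IFN-γ present and of the interaction, the same numbers as without it, and no member changed its call. The calls over all genes moved more, from 1663, 1533, 77 and 67 in the first 4 comparisons to 4032, 3661, 771 and 748 with the replicate block and 2185, 2099, 331 and 281 with DESeq2, and leaving out single libraries gave 11 to 83 for EZH2i and 10 to 65 for EZH2i with IFN-γ present. As low as 29 and 7 were called in these 2 under the other settings. The 10 member calls passed in every alternative that tested the gene, with the weakest adjusted p at 0.000849 over edgeR and DESeq2, and no uncalled member passed in any (smallest adjusted p 0.113). Requiring at least 10 counts in every library left 3 called members in each comparison of IFN-γ, because Psmb8 and Psmb9 fall below that count in at least 1 library without IFN-γ and were not tested. Paired by number, the log2 ratio differences with IFN-γ were 7.98, 7.43, 3.51 and 3.19 (β5, β1, β2 and PA28) and that of PA28 with EZH2i was 0.26. Each had an exact sign-flip adjusted p of 0.05, which fails the threshold because 0.03125 is the smallest p that 64 arrangements allow. This test took the differences of both strata as separate pairs, although both use the same replicate numbers. It also paired Ctr replicate 2 by number, a library that did not pair by the measure above. The Psmb8 to Psmb5 difference with EZH2i turned to 0.024 with CPM and 0.10 with protein-coding transcripts, that of Psmb10 to Psmb7 to -0.025 and -0.13, and that of PA28 lost its call at 0.27 and 0.26. Over the libraries left out, these EZH2i differences ran from -0.21 to 0.10 for Psmb8 to Psmb5, from 0.32 to 0.65 for Psmb9 to Psmb6 and from 0.21 to 0.31 for PA28.

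Of 931 log2 fold changes of single members under alternatives, 41 changed sign, all of genes that were not called (main values of at most 0.166 in size, adjusted p of at least 0.778). For EZH2i, Psmb8 turned to -0.021 with length-scaled TPM and Psmb10 to -0.080 with protein-coding transcripts. For the interaction, Psme3 turned to -0.00462 with no filter, and with protein-coding transcripts Psmb8 turned to -0.26 and Psme2 to 0.010. Leaving out libraries gave, with IFN-γ, -0.18 to 0.20 for Psme3 and -0.0883 to 0.0082 for Psmb6, and -0.20 to 0.33 for Psme3 with the inhibitor present. It gave -0.10 to 0.010 for Psmb6 with EZH2i, and with IFN-γ present -0.074 to 0.25 for Psmb5, -0.019 to 0.28 for Psmb7, -0.42 to 0.076 for Psme3 and -0.071 to 0.28 for Psme2. For the interaction it gave -0.21 to 0.10 for Psmb7, -0.21 to 0.14 for Psme2, -0.24 to 0.27 for Psme3, -0.037 to 0.22 for Psmb8 and -0.056 to 0.16 for Psmb10. The cause of these turns was not tested. With 3 libraries in a group, and 5 to 46 counts of Psmb8 and Psmb9 in the Ctr libraries, small differences in the levels without IFN-γ could not be resolved.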
